A study of Caenorhabditis elegans with 2 samples.

Results

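The histone genes of Caenorhabditis elegans were followed in whole worms given ellagic acid, a plant polyphenol. The set comprised 81 of the 21163 gene rows of the deposited table, namely every gene named his or hil with a number, together with htz-1. It held 9 genes of the linker histone H1, 17 of H2A, 17 of H2B, 15 of H3, 16 of H4, 1 of the H2A variant H2A.Z and 6 of H3 variants. The deposited annotation fitted these names: 79 members carried a Swiss-Prot histone description and 80 a histone domain family. The class used here was that of the Swiss-Prot description for 78 members, the exceptions being hil-7 and hil-8, which have no such description, and his-73, which is described as H3 and is counted here with the H3 variants.

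The EA group was wild-type strain N2 fed Escherichia coli OP50 mixed with 100 µM ellagic acid (EA) in 0.2% dimethyl sulfoxide (DMSO), taken at day 5, and the control group was N2 given vehicle, taken on the same day. Each group was 1 RNA sequencing library of whole animals, with 39421614 counts in the EA library and 41840364 in the control library. No difference below therefore has a replicate check or a p-value, and each interval is an exact 95% interval of counting error alone. In RNA of whole animals, fewer cells of a type and less RNA per cell cannot be told apart. No label gives the number of animals per library.

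Histones H2A, H2B, H3 and H4 form the core around which DNA is wound in the nucleosome, and H1 binds the linker DNA between nucleosomes. Most animal core histone genes lie in clusters of near-identical copies, are used when DNA is replicated, and give messenger RNAs that end in a stem-loop in place of a poly(A) tail. Replacement variants such as H3.3 and H2A.Z are deposited outside replication, and their messenger RNAs carry poly(A) tails. In the adult worm, cell division is confined to the germline and the embryos it produces. The library kit is named in the labels, but no label says whether RNA was selected by its poly(A) tail, so levels of copies with and without a tail are not compared as levels of transcription.

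Histone transcripts together were a small part of both libraries and, before any allowance for transcript length, were slightly lower with EA. They took 51603 counts in the EA library, or 0.131% of it (0.130% to 0.132%), and 57563 counts in the control library, or 0.138% (0.136% to 0.139%). The log2 ratio of EA to control, on library sizes scaled by TMM and with 0.5 added to each count, was -0.11 (-0.12 to -0.09). With a trend of all genes on transcript length removed, it was 0.11, so the sign of the total depends on that step. The classes differed in the ratio before this removal. H4 was lowest, H2A and H2B lay between, and H1, H2A.Z and the H3 variants lay within 0.1 of equality.

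**Figure D1:**
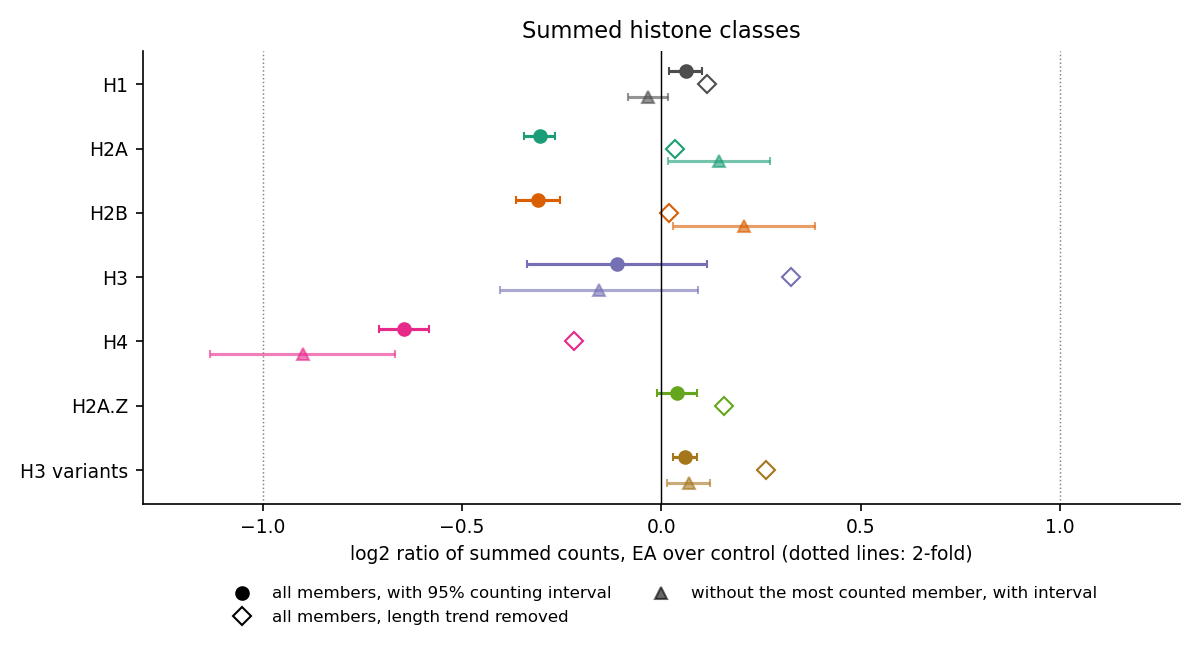
Log2 ratio of EA to control for the summed counts of each histone class, with bars for the 95% counting interval; 1 library per group. The sums of H2A, H2B and H4 lie below 0, at -0.31, -0.31 and -0.64, and each moves up by between 0.3 and 0.5 when a trend on transcript length, fitted over all genes, is removed.

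H2A gave 9513 counts in the EA library and 12176 in the control library, or 238 and 295 CPM, counts scaled to library size, 1.24-fold lower with EA, with a log2 ratio of -0.31 (-0.34 to -0.27). H2B gave 4589 counts with EA and 5889 in the control, or 115.0 and 142.5 CPM, also 1.24-fold lower, with a log2 ratio of -0.31 (-0.37 to -0.25). H4 gave 3373 counts with EA and 5462 in the control, or 84.5 and 132 CPM, 1.56-fold lower, with a log2 ratio of -0.64 (-0.71 to -0.58). These 3 sums were thus lower with EA by more than counting error, and the intervals of H4 and of H2A or H2B did not overlap. Core H3 gave 310 counts with EA and 347 in the control, or 7.77 and 8.40 CPM, with a log2 ratio of -0.11 and an interval from -0.34 to 0.11 that includes equality.

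The 3 lower sums were each carried by 1 gene, and these genes stand side by side on chromosome V. His-35, an H2A gene (V:9544659-9545288, build WBcel235), held 89.0% of H2A counts in the EA library (88.4% to 89.7%) and 92.0% in the control library (91.5% to 92.5%). His-41, an H2B gene (V:9545536-9546264), held 88.1% of H2B counts with EA (87.1% to 89.0%) and 91.7% in the control (90.9% to 92.4%). His-37, an H4 gene (V:9547105-9547607), held 93.0% of H4 counts with EA (92.1% to 93.9%) and 91.7% in the control (90.9% to 92.4%). In the annotation these 3 and his-57 are the core members with untranslated regions; the other 61 core members are annotated as coding sequence alone, of at most 411 nucleotides.

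His-35 was at 8470 counts in the EA library and 11199 in the control library, with a log2 ratio of -0.35 (-0.39 to -0.31). His-41 was at 4042 counts with EA and 5398 in the control, at -0.37 (-0.43 to -0.31). His-37 was at 3138 counts with EA and 5008 in the control, at -0.62 (-0.69 to -0.56), or 1.54-fold lower (1.47 to 1.61). The H2A and H2B genes of this locus hence had the same ratio within counting error, and the H4 gene beside them a lower one. His-41 shares 173 of its 729 bases with C50F4.6 on the same strand, a gene at 860 counts with EA and 1009 in the control, so some of its reads may belong to that gene. His-37 overlaps nstp-10 on the opposite strand by 6 of its 503 bases.

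Per transcript length, in the authors' deposited FPKM, the order of the most abundant members changed. In the EA library the H3.3-type gene his-72 stood first at 496 FPKM and his-35 next at 416 FPKM, followed by htz-1 at 216, his-41 at 192, his-74 at 182 and his-37 at 179 FPKM. In the control library his-35 stood first at 507 FPKM and his-72 next at 437 FPKM, followed by his-37 at 263, his-41 at 236, htz-1 at 201 and his-74 at 144 FPKM. Without replicates the spread of these levels is unknown, so neighbours in either order are not shown to differ. Core H3 genes summed to 17.9 FPKM with EA and 18.6 FPKM in the control, against 737 and 653 FPKM for the H3 variants. Core genes thus supplied 2.37% of H3 FPKM in the EA library and 2.77% in the control library. As the use of poly(A) selection is not known, these shares describe the libraries and not levels of transcription.

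Outside the abundant genes, the classes differed in how their remaining copies stood. Without his-35 the other 16 H2A genes held 1043 counts with EA and 977 in the control, a log2 ratio of 0.15 (0.02 to 0.27), but 12 of them lay below equality and only 4 above, and the sum rests on his-68. Without his-35 and his-68 the 15 remaining H2A genes held 434 counts with EA and 534 in the control, a log2 ratio of -0.25 (-0.43 to -0.06), or 0.16 with a trend of all genes on transcript length removed. Without his-41 the other 16 H2B genes held 547 counts with EA and 491 in the control, a log2 ratio of 0.21 (0.03 to 0.39), with 10 above equality, 5 below and his-39 at 0 in both libraries. The direction of the H2B sum accordingly rests on his-41. Without his-37 the other 15 H4 genes held 235 counts with EA and 454 in the control, a log2 ratio of -0.90 (-1.13 to -0.67), with 12 below equality and 3 above, so H4 was lower with and without its leading gene. The 15 core H3 genes divided into 8 above equality and 7 below.

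Among the H2A copies, his-68 (I:9989132-9989515) was the exception in abundance. It was at 609 counts in the EA library and 443 in the control library, or 15.3 and 10.7 CPM, 1.42-fold higher with EA (1.26 to 1.61). The other H2A copies above 1 CPM, his-57, his-65, his-61 and his-47, lay on both sides of equality, with log2 ratios of -0.19, -0.33, 0.36 and -0.57; his-57 overlaps klp-12 on the opposite strand by 379 of its 1314 bases, so its reads may in part be those of klp-12. Among H2B copies, his-48 was at 115 counts with EA and 68 in the control, 1.75-fold higher, while his-66 stood at 100 and 92 counts and his-58 at 93 and 88 counts.

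Each remaining H4 copy was weakly expressed, and those above 1 CPM were lower with EA. His-60 (IV:7487681-7487992) was at 39 counts in the EA library and 118 in the control library, 2.90-fold lower (2.02 to 4.31). His-38 (X:7309564-7309875) was at 31 counts with EA and 69 in the control, 2.13-fold lower (1.39 to 3.40). With the trend of all genes on transcript length removed, neither was 2-fold lower, with log2 ratios of -0.93 for his-60 and -0.49 for his-38, and the 15 H4 genes other than his-37 together stood at -0.30. The 15 H4 copies without untranslated regions had a median of 15 counts with EA and 21 in the control. Of the core H3 copies, his-40 was at 58 counts with EA and 56 in the control, and his-32 at 36 with EA and 72 in the control, with a log2 ratio of -0.94 (-1.57 to -0.35). His-59 was at 29 counts with EA and 41 in the control, an interval that includes equality.

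The H4 counts without his-37 and the core H3 counts were also set out by gene pair. The pairs reuse counts of those sums and are not separate evidence of a difference. In the worm genome most core histone genes stand head to head with a partner, H2A with H2B and H3 with H4. There were 14 such H3/H4 pairs, with 234 to 321 bases between the genes, and over all of them H4 gave 220 counts with EA and 433 in the control, against 304 and 339 counts for H3. In 9 of the 10 pairs in which each gene had at least 20 counts over both libraries, the H4 gene had the lower log2 ratio; the difference, H4 minus H3, had a median of -1.06 and ranged from -1.85 to 0.16. The trend of all genes on transcript length, at the coding lengths of 312 nucleotides for H4 and 411 for H3, was -0.60 and -0.44. Of 16 H2A/H2B pairs, 9 met this minimum, and H2B had the higher ratio in 6 and the lower in 3, with a median difference of 0.50. Over all pairs, with no minimum on counts, H4 had the lower ratio in 11 of 14, and H2B the lower ratio in 8 of 16. Copies of a class can share reads, so the pairs are not independent of one another.

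**Figure D2:**
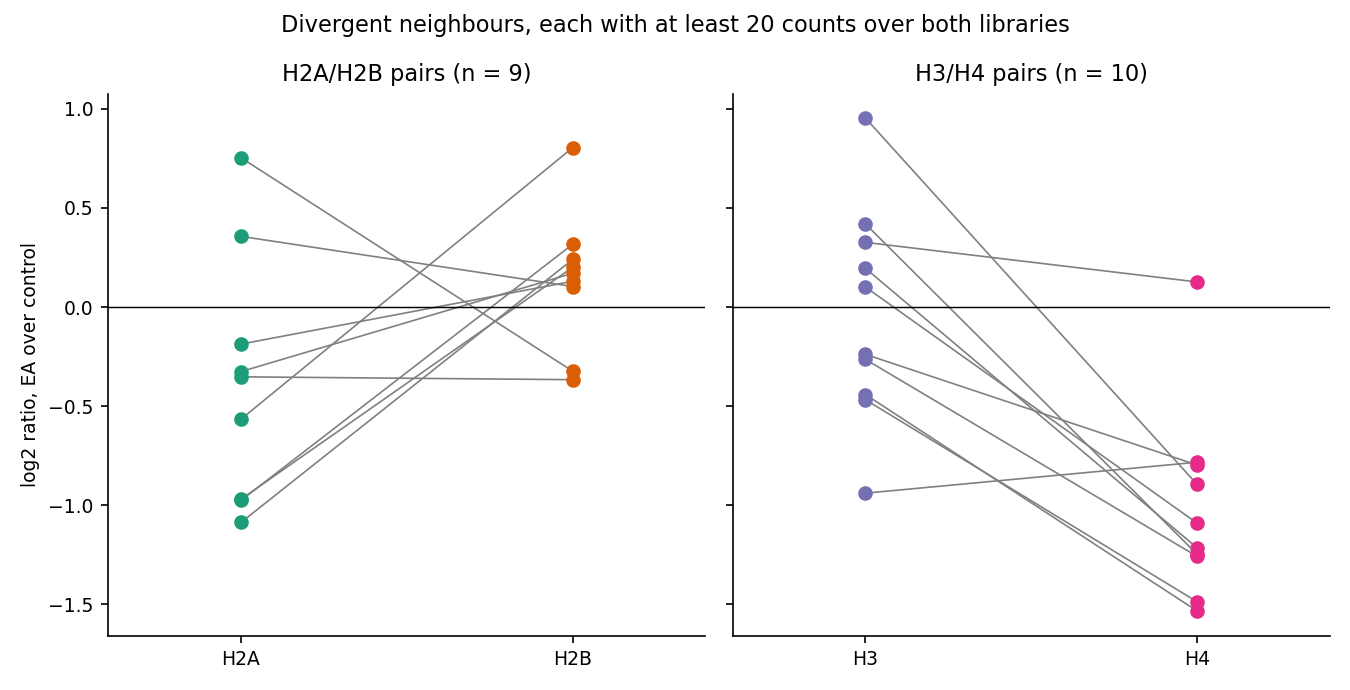
Log2 ratio of EA to control for the 2 genes of each divergent H2A/H2B and H3/H4 pair with at least 20 counts per gene over both libraries, joined by a line. In the H3/H4 pairs the H4 gene lies below its H3 partner in 9 of 10 pairs.

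No label says how reads that match several copies were assigned, so values of single copies are uncertain and class sums are the firmer measure. Of the 65 core genes, 17 reached a mean of 1 CPM and 4 a mean of 5 CPM. Over the whole set 13 members had 3 counts or fewer in at least 1 library, 6 were at 0 in the EA library alone and his-39 was at 0 in both; 3 counts, the limit that a count of 0 allows, correspond to 0.0752 CPM in the EA library and 0.0726 CPM in the control library.

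Short transcripts as a whole were lower in the EA library, and this trend bears on the core histones. Over 10426 genes with a mean of 5 CPM or more, a lowess fit of the log2 ratio on transcript length gave -0.60 at 312 nucleotides, -0.41 at 429, -0.32 at 498, -0.19 at 631 and 0.03 at 1500 nucleotides. Genes outside the set with transcripts of over 420 and up to 540 nucleotides had a median log2 ratio of -0.31 over 350 genes, close to his-35 and his-41. With the trend removed, the log2 ratio was 0.03 for H2A, 0.02 for H2B and -0.22 for H4, and it was -0.03 for his-35, -0.06 for his-41 and -0.21 for his-37. H2A and H2B thus lay near the line of other genes of their length, and H4 below it. With the tails at each end left out, those 350 genes ran from -1.25 to 0.22. His-37, at -0.62 before the removal, lay within that spread, so H4 is not shown to differ from genes of its length. Core H3 and the H3 variants lay above the line, at 0.32 and 0.26 with the trend removed. With the same tails left out, other genes of over 300 and up to 420 nucleotides ran from -1.53 to 0.64. Those of over 540 and up to 960 nucleotides ran from -0.97 to 0.46. Before the removal core H3, at -0.11, lay within the first spread, and his-72, his-74 and his-71, at 0.06, 0.27 and -0.55, within the second. Core H3 and these variants are hence not shown to differ from genes of their length either. Copies annotated without untranslated regions are placed at their coding length, so the value removed from them is that of a transcript shorter than the true one.

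**Figure D3:**
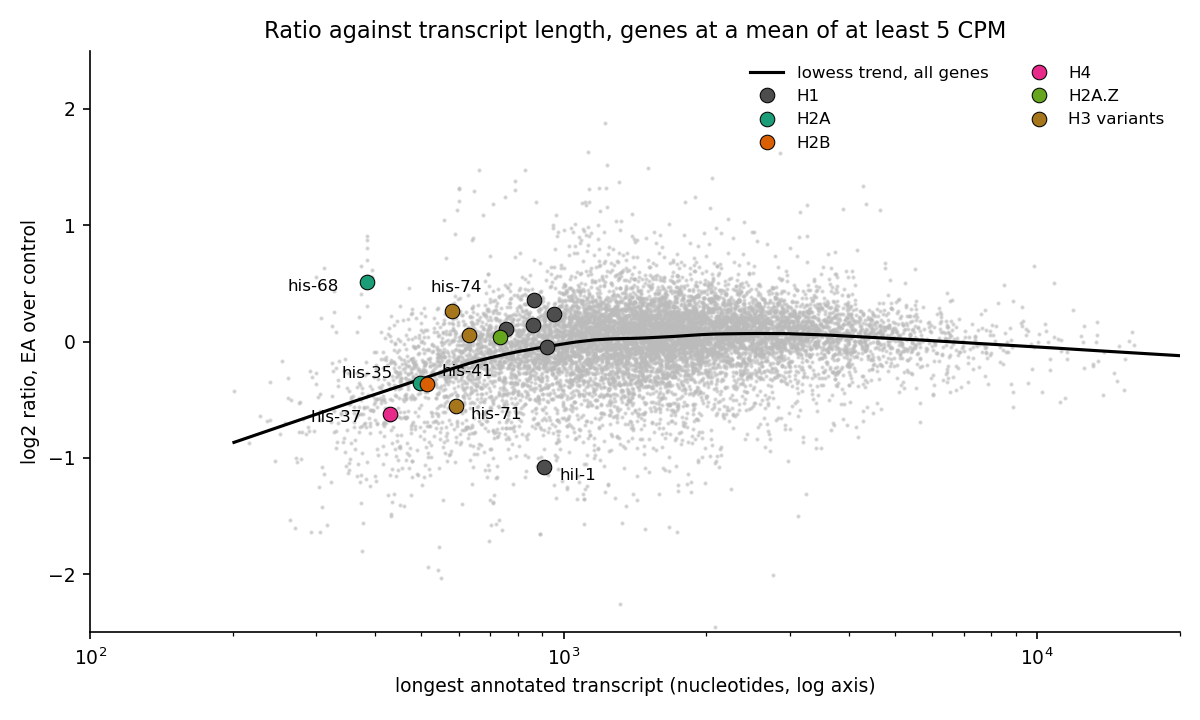
Log2 ratio of EA to control against the longest annotated transcript (log axis) for genes with a mean of 5 CPM or more; grey points are other genes, coloured points the 14 histone genes at that level, and the line is the lowess trend over all genes. His-35 and his-41 sit near the line, his-37, his-71 and hil-1 below it, and his-68 and his-74 above it.

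The H3 variants, which in animals replace H3 outside replication, were near equality as a class but differed among themselves. Their sum was 17701 counts in the EA library and 17590 in the control library, or 444 and 426 CPM, a log2 ratio of 0.06 (0.03 to 0.09). His-72 (III:12367475-12369050), an H3.3 gene used in most tissues, held 68.1% of these counts with EA and 68.3% in the control. It was at 12051 counts with EA and 12010 in the control, or 302 and 291 CPM, a log2 ratio of 0.06 (0.02 to 0.09).

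The H3.3-type genes his-71 and his-74 lay on opposite sides of equality. His-71 (X:7981382-7982070) was at 1181 counts in the EA library and 1796 in the control library, or 29.6 and 43.5 CPM, 1.47-fold lower with EA (1.36 to 1.58). His-74 (V:12659704-12660330) was at 4314 counts with EA and 3714 in the control, or 108 and 89.9 CPM, with a log2 ratio of 0.27 (0.20 to 0.33). Their transcripts are of similar length, and with the length trend removed the log2 ratios were -0.33 for his-71 and 0.50 for his-74. His-70 (III:4059715-4060119) was the weakest variant above 1 CPM and the furthest from equality, at 120 counts with EA and 50 in the control, 2.47-fold higher (1.77 to 3.53). Its neighbour his-69, under 1 CPM, was at 34 counts with EA and 19 in the control, and his-73 was at 1 count in each library.

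H2A.Z, the variant encoded by htz-1 (IV:4446216-4446999), was at 6493 counts in the EA library and 6545 in the control library, or 163 and 158 CPM. Its log2 ratio of 0.04 had an interval of -0.01 to 0.09. The 2 levels were equal within counting error. The genes of the exchange complexes that place H2A.Z in chromatin had a median log2 ratio of 0.01 over 10 genes, 5 above and 5 below equality, led by ekl-4 at 0.22, gfl-1 at 0.18 and zhit-1 at -0.13.

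Linker histone genes gave 9624 counts in the EA library and 9554 in the control library, or 241 and 231 CPM, a log2 ratio of 0.06 (0.02 to 0.10) in which single genes differed widely. Hil-1 (V:14949777-14952799) was at 584 counts with EA and 1278 in the control, or 14.6 and 30.9 CPM, 2.11-fold lower (1.91 to 2.33). Hil-7 was at 50 counts with EA and 104 in the control, with a log2 ratio of -0.998 just short of 2-fold. Hil-8 was at 76 counts with EA and 35 in the control, 2.23-fold higher (1.49 to 3.46). The most abundant linker gene, hil-4, was at 3580 counts with EA and 3146 in the control, a log2 ratio of 0.24 (0.17 to 0.31), and hil-5 at 1890 counts with EA and 1525 in the control, at 0.36 (0.26 to 0.46).

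The other linker genes had intervals that include equality. His-24, an H1 gene with roles in the worm germline, was at 1576 counts in the EA library and 1690 in the control library, a log2 ratio of -0.05 (-0.15 to 0.05). Hil-2 was at 1124 counts with EA and 1082 in the control, and hil-3 at 699 with EA and 656 in the control. Hil-6 was at 45 counts with EA and 38 in the control. Its log2 ratio of 0.29 had a wide interval, from -0.36 to 0.96, so its direction is not settled. Without hil-4 the sum of the class had a log2 ratio of -0.03.

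**Figure D4:**
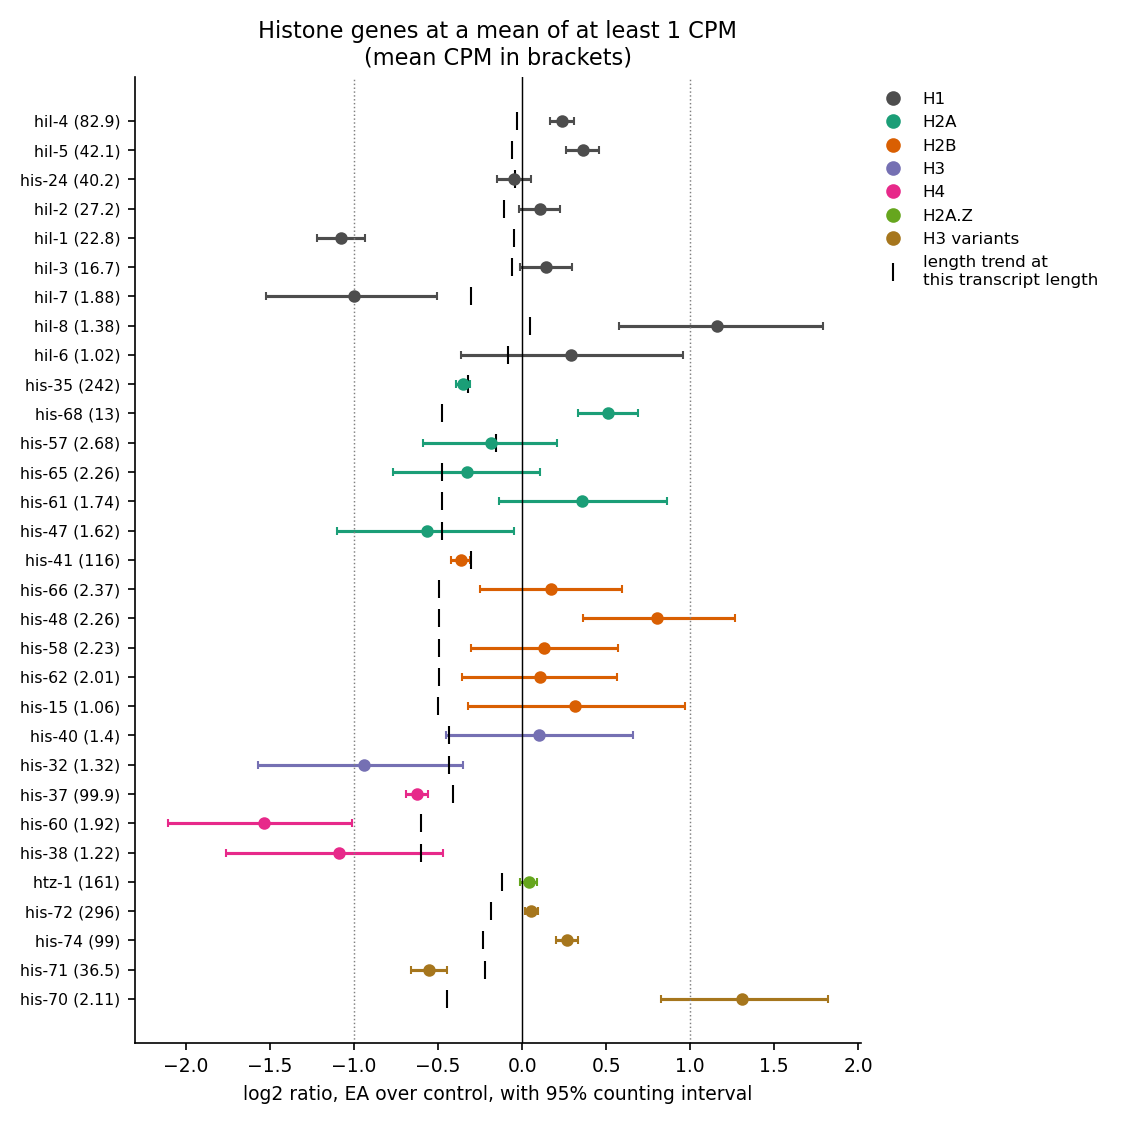
Log2 ratio of EA to control for the 31 histone genes with a mean of 1 CPM or more, grouped by class, with bars for the 95% counting interval; 1 library per group. Hil-8 and his-70 lie at least 2-fold higher with EA, and hil-1, his-60 and his-38 at least 2-fold lower.

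Of the 31 members that reached a mean of 1 CPM, 2 were at least 2-fold higher with EA and with an interval excluding equality, hil-8 and his-70, and 3 were lower by the same rule, hil-1, his-60 and his-38. These are 6.45% and 9.68% of the members, where 2.03% of 14221 genes were higher and 3.52% lower by that rule. The median of their log2 ratios was 0.10, against -0.00 for all genes. At a minimum of 5 CPM, 0 of 14 members were higher and 1, hil-1, was lower, beside 0.481% and 1.52% of 10610 genes, and at 10 CPM these counts were the same, beside 0.178% and 1.06% of 8970 genes. With the length trend removed, 3 members were higher, hil-8, his-70 and his-48, and 1 was lower, hil-1, beside 2.29% and 2.68% of 13790 genes.

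With no minimum on level, 5 members were at least 2-fold higher and 10 lower, beside 4.78% and 7.8% of 19750 genes. The 50 members under 1 CPM have few counts, and those named here were chosen after their values were seen. Those higher included his-1, an H4 gene, at 22 counts with EA and 2 in the control, and his-18, another H4 gene, at 14 and 1 counts. Those lower included his-46, at 18 counts with EA and 44 in the control, his-56, at 18 and 45 counts, and his-22, at 0 and 8 counts.

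The histones that the naming rule leaves out were measured beside them. The centromeric H3 genes hcp-3 and cpar-1 gave 2837 counts in the EA library and 3287 in the control library for hcp-3, and 1174 with EA and 966 in the control for cpar-1, with log2 ratios of -0.16 (-0.23 to -0.09) and 0.33 (0.21 to 0.46). The sperm-enriched H2A gene htas-1 gave 55 counts with EA and 52 in the control. Among 15 histone chaperones, which carry histones to DNA, 14 had ratios above equality; the median log2 ratio was 0.11, and the highest was 0.36 for hmg-3, a subunit of the FACT complex; lin-53 was at 0.32 and chaf-1, a subunit of chromatin assembly factor, at 0.26. None of the 15 was 2-fold changed. With the length trend removed, their median was 0.06.

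Genes for DNA replication were also slightly above equality. Of 30 such genes 24 lay above and 6 below, with a median log2 ratio of 0.15; pcn-1, which encodes the sliding clamp PCNA, was at 12251 counts in the EA library and 10205 in the control library, a log2 ratio of 0.31 (0.28 to 0.35), and the origin recognition genes orc-3 and orc-1 were at 0.33 and 0.29. Of 6 genes for processing the 3′ end of histone mRNA, 5 lay above equality, with a median of 0.12. Among them cdl-1, the stem-loop binding protein gene, was at 6577 counts with EA and 6326 in the control, a log2 ratio of 0.11 (0.06 to 0.16), symk-1 was at 0.50, eri-1 at 0.25 and zfp-3 at -0.22. No gene of either list was 2-fold changed. With the length trend removed, the medians were 0.09 for replication and 0.07 for 3′ end processing. Other genes of over 960 and up to 3000 nucleotides had a median of 0.04 at 5 CPM or more. Of these 6629 genes, 3810 lay above equality. Core histone transcripts together had a log2 ratio of -0.37 (-0.40 to -0.35), or -0.02 with the length trend removed. That sum was carried by the 4 core genes with annotated untranslated regions, at -0.41 (-0.44 to -0.38). The 61 core genes annotated as coding sequence alone gave 2035 counts with EA and 2151 in the control. Their log2 ratio was -0.03 (-0.12 to 0.06), or 0.46 with the length trend removed.

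Genes of enzyme families that modify histones were near equality as groups, though not every member need act on histones. Among 31 genes for histone methylation and demethylation above 1 CPM, 19 lay above and 12 below, with a median log2 ratio of 0.06; the furthest at 5 CPM or more were the demethylase gene jmjd-3.1 at -0.44, rbbp-5, a subunit of an H3K4 methyltransferase complex, at 0.38, and set-32 at 0.29. Among 18 acetylation and deacetylation genes, 8 lay above and 10 below, with a median of -0.03, or 0.04 on the authors' FPKM; the furthest at 5 CPM or more were sir-2.2 at -0.43, pcaf-1 at -0.30 and hda-6 at 0.24. No gene of these lists was 2-fold changed. With the length trend removed, the medians were -0.003 for the methylation list and -0.07 for the acetylation list.

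Sperm, oocyte and germline markers were higher in the EA library, and the embryo markers above 1 CPM were near equality. Of 16 sperm markers above 1 CPM, all 16 lay above equality. Their median log2 ratio was 1.05, or 0.46 over the 7 at 10 CPM or more. At least 2-fold higher, with an interval excluding equality, were 9 of the 16, beside 2.03% of 14221 genes. Under 1 CPM, spe-42 was at 35 counts with EA and 31 in the control, spe-38 at 15 and 9, and spe-9 at 33 and 43. All 19 listed sperm markers summed to 215 CPM with EA and 135 CPM in the control. The sperm chromatin gene spch-3 was at 1.25, ssq-3 at 1.32 and gsp-3 at 1.2. Of 22 oocyte and germline markers 21 lay above equality, with a median of 0.29 and a sum of 5986 CPM with EA and 4943 CPM in the control, led by oma-2 at 0.68, puf-5 at 0.54 and egg-3 at 0.48. Of 8 embryo markers above 1 CPM 4 lay above and 4 below, with a median of 0.02. All 19 listed summed to 225 CPM with EA and 202 CPM in the control. Most of both sums came from lin-26 (85.1 and 68.6 CPM), die-1 (57.1 and 46.6 CPM) and pha-4 (30.5 and 34.1 CPM). Their log2 ratios were 0.31, 0.29 and -0.16. Markers under 1 CPM went both ways, such as tbx-37 at 16 counts with EA and 0 in the control, and pes-10 at 0 and 5. Tbx-35 was at 0 in both libraries. The interval of tbx-37 excluded equality, with a lower limit of 2.00 on the log2 ratio. Too few counts fell on the other markers under 1 CPM to show a direction. The part of these cell types in the histone ratios was not tested.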

How the data were processed

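The authors deposited a table of unnormalized counts and of FPKM (fragments scaled by transcript length and depth) for each library; per the labels' protocols the reference was WBcel235 and libraries were made with the NEBNext Ultra RNA kit. The submitters' processing notes name edgeR. Not given in the sources used here: the aligner, the counter, the treatment of reads that match several genes, the use of strand and poly(A) selection. Groups came from the sample titles. Ratios of counts were computed in Python 3.11.15, on library sizes scaled by TMM in edgeR 4.0.16 (R 4.3.3). The TMM factors were 1.01 for EA and 0.988 for control. On this scale 1 CPM equals 39.9 counts in the EA library and 41.3 in the control library. Intervals of ratios are exact conditional binomial ones (Clopper-Pearson, 95%), and so are those of shares. A gene was called at a ratio of at least 2-fold with an interval excluding equality and a mean of at least 1 CPM. With 1 library per group no test was run. Transcript length is the longest transcript of Ensembl release 115, known for 19973 rows and all 81 members; coordinates count from 1. The length trend is a lowess fit with a span of 0.3. The interval and the trend were run on simulated counts with counting error alone. Such counts say nothing of spread between worms or libraries.

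Members and lists were chosen with earlier results of these data known. Named genes are the H1, H2A.Z and H3 variant genes at 1 CPM or more, the 3 most abundant genes of each core class with the extremes at 5 CPM or more, and up to 3 genes per list with the largest ratios at 5 CPM or more, with cdl-1, htas-1, hcp-3 and pcn-1. Other members, the pairs, the loci and the split by annotated untranslated regions were added after their values were seen. Of 179 list entries, 5 names (lsm-10, lsm-11, daxx-1, cdc-45 and swc-6) matched no row and are not analysed here.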

Additional observations from a re-analysis of the deposited data

How the results depend on the processing

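No paired analysis was possible because each group has 1 library. Removing the length trend moved the class log2 ratios to 0.11 for H1, 0.033 for H2A, 0.019 for H2B, 0.32 for H3, -0.22 for H4, 0.16 for H2A.Z and 0.26 for the H3 variants, which turned the signs of H2A and H2B, and that of H3, whose interval includes equality. On the authors' FPKM the ratios were 0.12 for H1, -0.23 for H2A, -0.22 for H2B, 0.11 for H2A.Z and 0.17 for the H3 variants, on a scale where the median of all genes lies at 0.07. With library totals as the scale the H3 variants stood at 0.095. Without the most abundant member the ratio was -0.034 for H1, 0.15 for H2A, 0.21 for H2B and -0.90 for H4, so the signs of the first 3 turned. Without the 2 most abundant members, an alternative chosen after seeing the data, it was -0.25 for H2A, 0.21 for H2B and -0.73 for H4. The median of the acetylation genes turned to 0.039 on FPKM. The median of the sperm markers was 0.46 at a minimum of 10 CPM. Members at least 2-fold higher numbered 5 with no minimum and 0 at a minimum of 5 or 10 CPM; those lower numbered 10, 1 and 1 under the same minimums, and 1 with the length trend removed. The minimum sets these counts by the number of genes assessed: 50 of 81 members are under 1 CPM, where few counts limit what can be seen.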

Other observations

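Sums by locus, joining histone genes no more than 10000 bases apart, gave 14 loci of 2 or more members, holding 67 of the 81. The locus of his-35, his-41 and his-37 on chromosome V gave 15650 counts in the EA library and 21605 in the control library, a log2 ratio of -0.41 (-0.44 to -0.38). The largest cluster, 13 genes on chromosome II (II:13817760-13828697), gave 255 counts with EA and 349 in the control, -0.40 (-0.64 to -0.16). Within it H2A was at 42 counts with EA and 89 in the control, H2B at 119 and 103, H3 at 66 and 86, and H4 at 28 and 71. The locus of his-69 and his-70 on chromosome III gave 154 counts with EA and 69 in the control, 1.2 (0.79 to 1.64), and a cluster on chromosome V (V:16040144-16042831) gave 83 and 46 counts, 0.90 (0.37 to 1.45). The locus of his-67 and his-68 on chromosome I was at 624 counts with EA and 464 in the control, 0.48. Copies in different loci can share reads, so these sums are not independent.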
